A study of Rattus norvegicus with 8 samples.

Results

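Axl, Mertk and Tyro3, the TAM receptor tyrosine kinases, were examined together with their ligand genes Gas6 and Pros1 and with Timd4 and Mfge8, further genes for the recognition of apoptotic cells. These 7 genes were chosen by name for their role, with earlier results of these data known. Each was found on the array through the gene name that the scanner files give each probe. They were measured by 8 probes of 45598, since Timd4 had 2 probes and each of the other genes had 1. Transcripts were measured in NR8383, a rat alveolar macrophage line started from the lavage of a normal rat lung. The treated cells received NM401, a multi-walled carbon nanotube, at 0.17 µg/mL for 4 h, and the control cells were kept for the same 4 h at 0 µg/mL. Both groups were kept without fetal bovine serum during that time. There were 4 NM401 and 4 control samples, described in the labels as biological replicates, each hybridised as Cy3-labelled cRNA to a 1-colour Agilent array. The line is a single established line in culture, and the labels name no added apoptotic cells and no uptake assay, so the data are transcript levels only.

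Dying cells expose phosphatidylserine on their surface, and macrophages take them up through receptors that bind it. Mfge8 encodes a secreted bridge between phosphatidylserine and integrins, Timd4 encodes a receptor that binds phosphatidylserine directly, and Gas6 and Pros1 (protein S) encode vitamin K-dependent proteins that bridge it to the TAM receptors. Signalling through TAM receptors is known to drive engulfment and to dampen inflammatory cytokine responses, and in mice Axl is the TAM receptor best known from alveolar macrophages.

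The level of each gene is the hybridisation signal of its probe, so the probe sequences define what was measured. The last 30 bases of the 60-base probes are shown, 5′ to 3′ as in the scanner files, for the 5 genes with signal above background on at least some arrays. Capitals mark the polyadenylation signal AATAAA where it occurs.
Axl: ggacgctatgtcctttgtccttctacagcc
Mertk: gtgtgttaccagaggacagactcaccaaaa
Tyro3: tattaagttgctgtttcaaaacAATAAAat
Gas6: cagggtcagggacacacagcaccatctcct
Mfge8: ctttgagaaacctttcatggctcgctatgt
The scanner files place these probes on rat build rn4. The Axl probe lies at chr1:80964817-80964876 on the minus strand, the Mertk probe at chr3:116416248-116416307 on the plus strand and the Tyro3 probe at chr3:106328542-106328601 on the plus strand. The Gas6 probe lies at chr16:80930560-80930619 on the plus strand and the Mfge8 probe at chr1:134870731-134870790 on the minus strand. The Pros1 probe is placed on unassigned sequence (chrUn:8299202-8299261), and the Timd4 probes at chr10:31929373-31929432 and chr10:31927513-31927572, all on the plus strand. The files give these probes a gene but no exon or untranslated region. AATAAA was found in 2 of the 8 probes, that of Tyro3 and one of Timd4, against 9.0% of all 45598 probes, searched on the probe strand only.

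Signal differed between the groups across the whole array, which bears on every level below. The 75th percentile of the signal over non-control spots was 2692 ± 172 in NM401 samples and 1236 ± 224 in control samples (SD, n = 4 each), without overlap (exact permutation p = 0.0286, two-sided, the smallest that 4 against 4 arrays allow). The share of spots well above background was 55.4% ± 1.82 in NM401 samples and 54.1% ± 2.12 in control samples (exact permutation p = 0.429). No spot was saturated (0 on the 8 arrays). Levels are given here as log2 of the processed signal minus that 75th percentile, so that a value of 0 lies at the percentile of its own array, and a level of one probe cannot be set against that of another. On this scale the spike-in probes, RNAs added by the kit, stood 2.02 lower in NM401 samples, with means of -1.73 in NM401 and 0.29 in control samples (exact permutation p = 0.0286). Before scaling, their mean log2 signal was also lower, at 9.66 in NM401 and 10.54 in control samples, a difference of -0.88 (exact permutation p = 0.0286). Whether equal amounts were added to both groups is not given in the sources used here. All 4 control arrays and NM401 replicate 1 shared slide 1, while NM401 replicates 2 to 4 were on slide 2. The position on the slide cannot be told apart from the treatment, because every NM401 array was in row 2 and every control array in row 1. Of 12 macrophage markers on the array, 10 were well above background on all 8 arrays, and Marco, a scavenger receptor of alveolar macrophages, was on 0. Of these 12, 5 were called higher with NM401 (Adgre1 by 1.49, Msr1 by 1.06, Spi1 by 0.56, Fcgr1a by 0.36 and Tyrobp by 0.35 on the log2 scale), and 2 lower (Mrc1 at -0.59 and Cd68 at -0.36). Adgre1 was above background on 4 NM401 arrays and 1 control array. The summed level, which the brightest markers carry, ranged over 6.50 to 6.58 in NM401 samples and 6.41 to 6.45 in control samples (log2, same scale). Of 9 epithelial and 6 neutrophil markers, 0 were above background on all arrays. The neutrophil granule gene Mpo was above background on 0 NM401 and 4 control arrays. S100a8 was above background on 1 NM401 and 3 control arrays and was called lower (-0.93, adjusted p = 0.0322), and S100a9, Elane, Csf3r and Cxcr2 were above background on 0 arrays. The neutrophil sum ranged over -5.33 to -4.72 in NM401 samples and -3.73 to -3.29 in control samples. Nkg7 was the 1 of 6 lymphocyte markers above background on all arrays and was called lower (-1.24), with sums of -1.78 to -1.48 in NM401 and -0.71 to -0.30 in control samples. Of 8 fibroblast and endothelial markers 4 were above background on all arrays and 4 on none, Col1a2 (-1.20) and Cdh5 (-1.15) were called lower, with sums of 1.35 to 1.39 in NM401 and 1.42 to 1.83 in control samples. The part of these markers in the results was not tested.

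Of the 7 genes, Axl, Mertk, Tyro3 and Mfge8 were well above background on all 8 arrays and entered the test, while Gas6, Pros1 and Timd4 did not reach the minimum of 4 arrays. Axl and Tyro3 fell with NM401, Mertk and Mfge8 passed in neither direction, and 0 of the 4 rose (limma, adjusted p below 0.05 over all probes tested). The count of 2 called among 4 tested genes stands beside 57.3% called among all 17444 genes tested. All genes were called higher in 21.9% and lower in 35.4%. The NM401 and control arrays did not overlap in 2 of the 4 genes, and in 53.2% of all genes. The median log2 fold change of the 4 genes was -0.19, NM401 minus control, and that of all genes was -0.10, with quartiles of -0.42 and 0.21. These shares are near those of all genes, so the counts alone do not set the group apart.

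**Figure D1:**
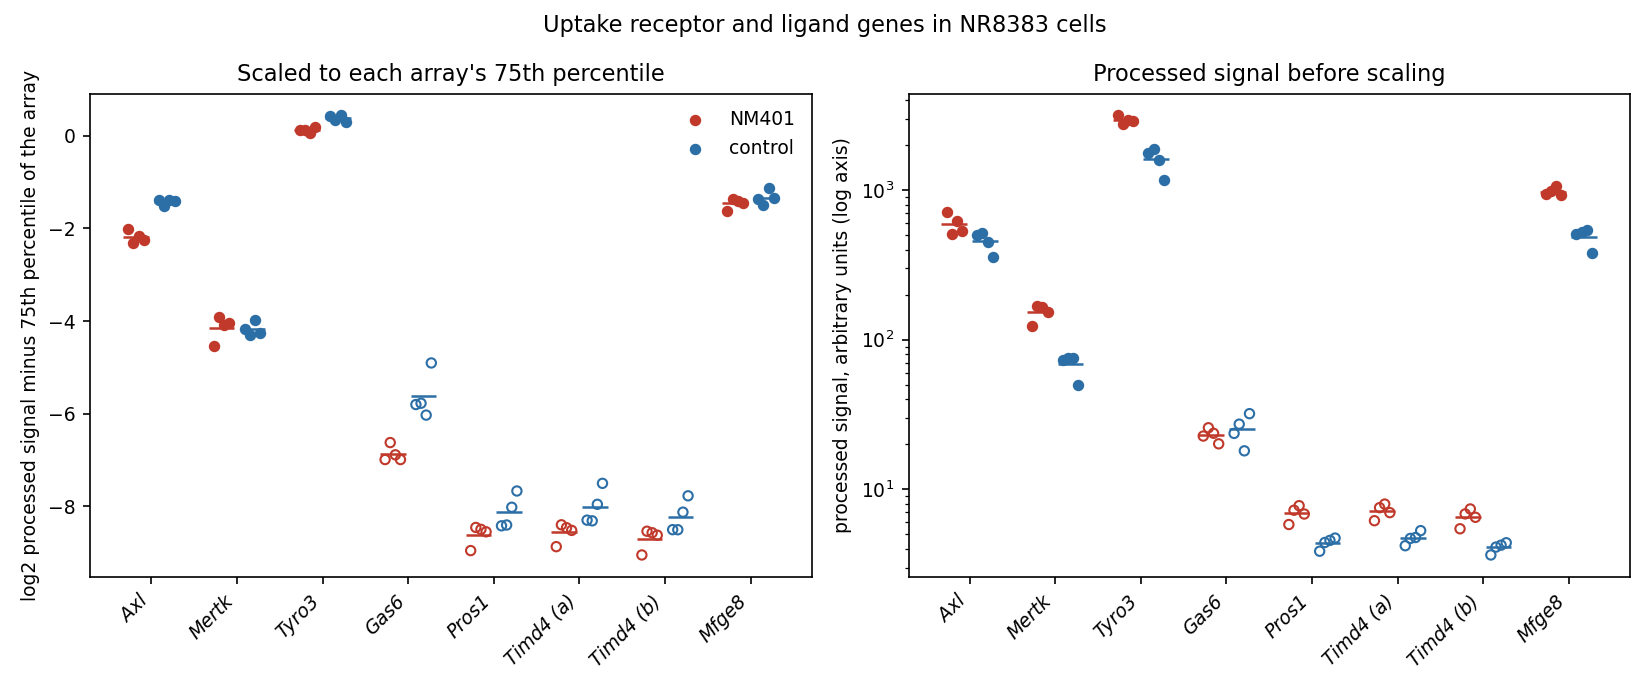
Levels of the 8 probes in 4 NM401 (red) and 4 control (blue) samples, on the left as log2 processed signal minus the array's 75th percentile and on the right as processed signal on a log axis. Points are arrays, lines are group means, and open points mark probes that were not tested because they were well above background on fewer than 4 arrays. Axl and Tyro3 lie lower in NM401 on the left panel, Gas6 lies lower on the left panel and overlaps on the right, and Mertk and Mfge8 overlap on the left. Pros1 and both Timd4 probes, at background, lie lower in NM401 on the left panel and higher on the right.

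Axl encodes a TAM receptor whose known high-affinity ligand is Gas6. Its level was -2.01, -2.31, -2.17 and -2.26 in NM401 replicates 1 to 4, against -1.39, -1.53, -1.39 and -1.42 in control replicates 1 to 4. Every NM401 sample lay below every control sample, and NM401 replicate 1 was the highest of its group. Axl was 1.69-fold lower with NM401, a log2 fold change of -0.76 ± 0.08 (SE, n = 4 per group; 95% interval -0.93 to -0.58; limma, adjusted p = 0.000157). Of all genes tested, 11.1% had a log2 fold change at or below that of Axl, and relative to the median of all genes Axl was at -0.66. The processed signal before scaling was 714, 511, 621 and 534 in NM401 samples and 504, 517, 450 and 358 in control samples. These unscaled signals overlapped and averaged higher with NM401, so the lower level of Axl is relative to the rest of the RNA on the same array. In RNA of whole cultures, fewer cells with Axl transcript and less of it per cell cannot be told apart. Slide 2 held no control array, so a fit with slide as a block sets NM401 replicate 1 alone against the 4 controls, here and in all genes that follow. That single array gave -0.58 for Axl, both with slide as a block and with slide 1 fitted alone. The spread in these fits came from the other arrays only, the lone NM401 array being assumed to vary like them. These are 1 comparison and not independent of each other.

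Tyro3 encodes the TAM receptor best known from neurons and platelets. Its probe was printed on 10 spots per array, which makes it the most repeatedly measured of these genes, and the spots of an array had an SD of 0.03 to 0.06. The level of Tyro3 was 0.13, 0.13, 0.07 and 0.18 in NM401 samples, against 0.43, 0.34, 0.44 and 0.29 in control samples. The groups did not overlap, and the gap between the nearest samples was small. The log2 fold change was -0.25 ± 0.06 (95% interval -0.37 to -0.12), a 1.19-fold lower level (limma, adjusted p = 0.00608), and -0.23 when spots marked as outliers by the scanner software were kept. Of all genes tested, 37.3% had a log2 fold change at or below that of Tyro3. Relative to the median of all genes Tyro3 was at -0.15. That figure was 0.01 with the background correction normexp and -0.01 with the series values that the authors deposited. Before scaling, Tyro3 signal was higher in every NM401 sample, with 3151, 2775, 2936 and 2894, than in any control sample, with 1769, 1889, 1596 and 1171. The call was lost with median scaling (log2 fold change -0.04, adjusted p = 0.692) and with slide as a block (-0.24, adjusted p = 0.079, or 0.194 with slide 1 fitted alone).

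Mertk encodes the TAM receptor most closely tied to the engulfment of apoptotic cells by macrophages. Its level was -4.54, -3.91, -4.09 and -4.05 in NM401 samples and -4.17, -4.30, -3.97 and -4.26 in control samples. The groups overlapped, and NM401 replicate 1, the array that shared a slide with the controls, was the lowest of all 8 samples. The log2 fold change was 0.03 ± 0.14 (limma, adjusted p = 0.884), and its 95% interval of -0.30 to 0.35 leaves room for a modest difference in either direction. Mertk gave a weak signal, with 123, 168, 164 and 154 in NM401 samples and 72.9, 75.8, 75.2 and 49.9 in control samples before scaling. With another background correction, normexp, it was called lower (-0.32, adjusted p = 0.0231), and with slide as a block it was at -0.37 (adjusted p = 0.0799).

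The differences between these receptors were also taken within each array, which removes any scaling between arrays. This was chosen after the values had been seen, and all 6 pairs among the 4 tested genes were compared. Axl fell relative to Mertk by 0.78 with NM401 on the log2 scale, relative to Mfge8 by 0.63 and relative to Tyro3 by 0.51. Each of these 3 differences separated all 4 NM401 from all 4 control arrays, with the smallest exact permutation p that the design allows (p = 0.0286, two-sided, and 0.0571 after Benjamini-Hochberg adjustment over 6 pairs). None therefore passed 0.05 after adjustment. The background correction still enters such differences, and Mertk gave a weak signal. With normexp, Axl was at -0.70, Mertk at -0.32, Tyro3 at -0.23 and Mfge8 at -0.19. With the series values that the authors deposited, Axl was at -0.68 and Mertk at -0.26. Axl and Mertk thus differed by less than 0.78 under both. In the pairs without Axl the groups overlapped. Mertk stood 0.27 higher relative to Tyro3 and 0.15 higher relative to Mfge8 (exact p = 0.143 each, adjusted 0.171), and Tyro3 relative to Mfge8 differed by -0.12 (exact p = 0.257).

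**Figure D2:**
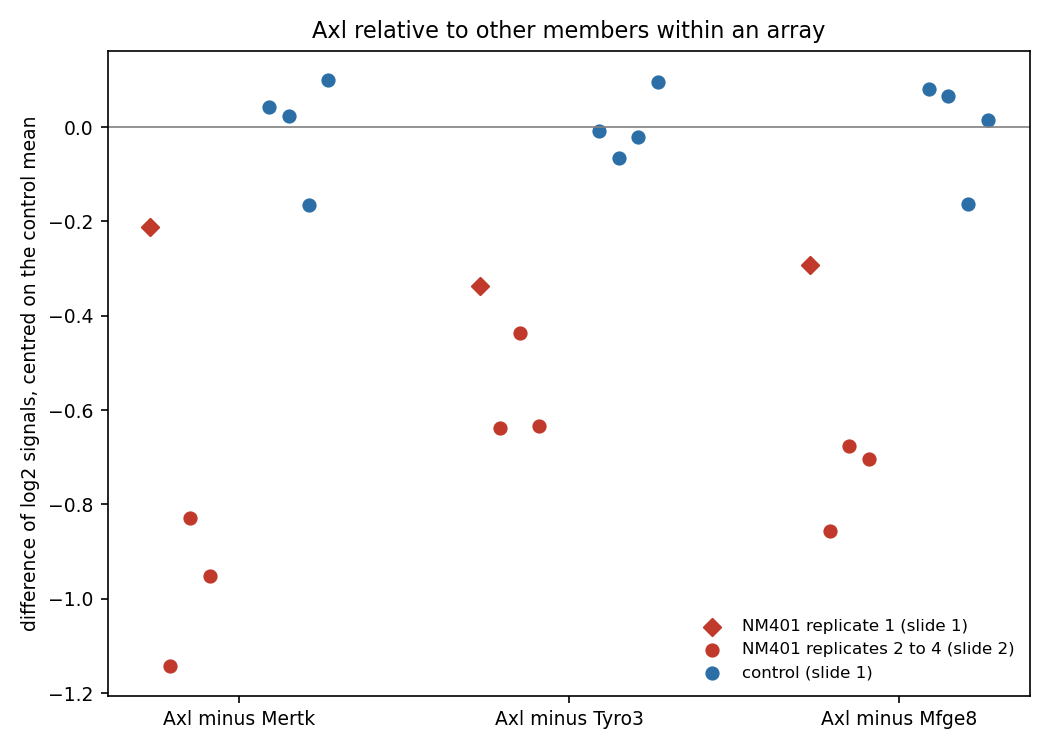
Axl relative to Mertk, Tyro3 and Mfge8 within each array, as a difference of log2 signals centred on the mean of the 4 control arrays, with NM401 in red and control in blue. NM401 replicate 1 (diamond, on the control slide) lies nearest to the controls in each comparison, at -0.21, -0.34 and -0.29, while NM401 replicates 2 to 4 lie between -1.14 and -0.44.

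The size of the Axl difference varied among the NM401 arrays along with the slide. Centred on the control mean, Axl relative to Mertk was -0.21 in NM401 replicate 1 and -1.14, -0.83 and -0.95 in NM401 replicates 2 to 4, against -0.16 to 0.10 in control samples. Axl relative to Tyro3 was -0.34 in NM401 replicate 1 and -0.64, -0.44 and -0.63 in the other NM401 replicates, against -0.07 to 0.10 in controls. Axl relative to Mfge8 was -0.29 in NM401 replicate 1 and -0.86, -0.68 and -0.70 in the others, against -0.16 to 0.08 in controls. The direction was therefore shared by all 4 NM401 arrays, and with 1 NM401 array on slide 1 the part of the slide in its size was not tested further.

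Gas6, the ligand gene, was well above background on 0 NM401 arrays and on control replicates 1, 2 and 4. Its level was -6.99, -6.62, -6.89 and -6.99 in NM401 samples, against -5.80, -5.77, -6.03 and -4.90 in control samples. The groups did not overlap, and control replicate 4 stood above the others. Because the NM401 values lie at background, the difference has only an approximate bound. Each NM401 array entered at the higher of its Gas6 signal and its lowest signal well above background. Against the control mean, Gas6 was then 1.83-fold lower in NM401 samples. Control replicate 3 was not well above background and entered at its own signal, so 1.83 is not a strict lower bound. Leaving out single arrays moved this bound between 1.55-fold (without control replicate 4) and 2.01-fold (without control replicate 3). Gas6 did not enter the test. In a fit of all probes without a filter its log2 fold change was -1.24 ± 0.24 (limma, adjusted p = 0.00909), a call that was lost with slide as a block (-1.36). The median of all 36276 genes in the unfiltered fit was -0.39, and 7764 of them were called lower. Relative to that median Gas6 was at -0.85. The unscaled signals of Gas6 were 22.7, 25.8, 23.7 and 20.1 in NM401 samples and 23.6, 27.2, 18.1 and 32.0 in control samples. These overlapped, so the groups were apart in the scaled values only. The probes of Pros1 and Timd4, well above background on 0 arrays, also lay lower in NM401 samples without overlap in the scaled values. For Pros1 the scaled means were -8.61 in NM401 and -8.12 in control samples. The scaled separation is therefore not particular to Gas6.

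Mfge8 was the secreted bridging gene with clear signal. Its level was -1.62, -1.36, -1.40 and -1.46 in NM401 samples and -1.37, -1.50, -1.13 and -1.34 in control samples, and the groups overlapped. The log2 fold change was -0.13 ± 0.09 (95% interval -0.34 to 0.09; limma, adjusted p = 0.274). Before scaling it was 934, 986, 1059 and 928 in NM401 samples and 508, 526, 538 and 378 in control samples.

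Pros1 and both Timd4 probes were well above background on 0 of 8 arrays, so no fold change is given. The signal of the Pros1 probe was 5.81 to 7.77 in NM401 samples and 3.85 to 4.72 in control samples. The Timd4 probes gave 6.16 to 7.96 and 5.45 to 7.39 in NM401 samples, and 4.20 to 5.29 and 3.64 to 4.39 in control samples. Transcripts of protein S and TIM-4 were thus not detectable with these probes at this signal.

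The scaling decides the direction of the levels above. When arrays were scaled to the spike-in probes, all 4 tested genes were called higher with NM401, Axl by 1.26, Tyro3 by 1.77, Mfge8 by 1.89 and Mertk by 2.05 on the log2 scale, and the median of all genes moved to 1.92. The order of the 4 genes kept Axl at the low end under that scaling, as it must, since a scaling shifts all genes of an array alike. With median scaling the 4 values were -0.55, -0.04, 0.08 and 0.23 for Axl, Tyro3, Mfge8 and Mertk, and the median of all genes was 0.11.

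**Figure D3:**
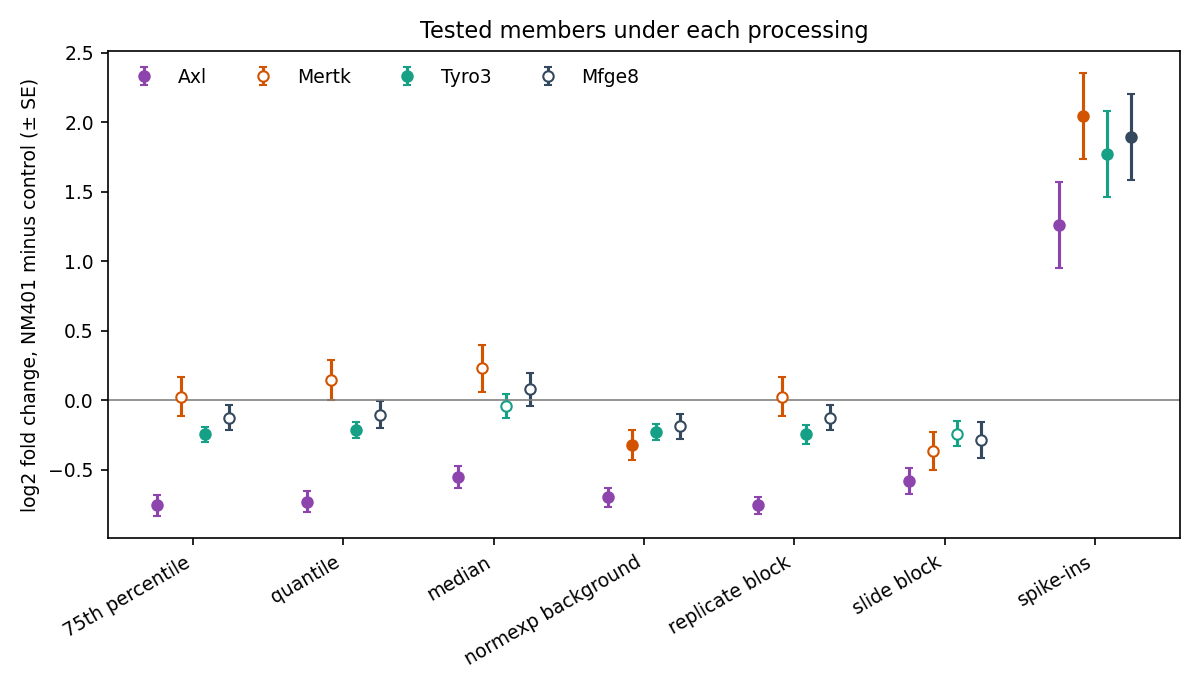
Log2 fold change (NM401 minus control) of Axl, Mertk, Tyro3 and Mfge8 under 7 ways of processing, with bars of ± 1 SE; filled points passed an adjusted p below 0.05. Axl is the lowest of the 4 in each, and with scaling to the spike-ins all 4 lie above 0, from 1.26 to 2.05.

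For each tested gene the 2 genes with a symbol and the most similar profile over the 8 arrays were found by Pearson correlation. These are descriptions over arrays that fall into groups and share slides, with no test. The closest profiles to Axl were those of Smarcd1, a chromatin remodelling subunit gene (r = 0.998), and Ndufv3, a respiratory complex I subunit gene (r = 0.995). Tyro3 was most like Cytip (r = 0.997), which encodes a cytohesin-binding protein of haematopoietic cells, and Mthfs (r = 0.990), a folate enzyme gene. Mertk was most like Ppip5k2 (r = 0.984), an inositol pyrophosphate kinase gene, and Ppp2r3a (r = 0.954), a phosphatase 2A subunit gene. Mfge8 was most like Cpne1 (r = 0.974), a copine gene, and Trim3 (r = 0.958). Smarcd1, Ndufv3, Cytip and Mthfs had log2 fold changes of -0.74, -0.53, -0.56 and -0.45.

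RefSeq promoter sequences (assembly GRCr8) were available for all 7 genes. The 250 bases before the annotated start are shown for the 3 TAM receptors, since Axl and Tyro3 fell and Mertk passed in neither direction, with the GC box, GGGCGG or its reverse complement CCGCCC, in capitals.
Axl (chr1:90424010-90424259, minus strand): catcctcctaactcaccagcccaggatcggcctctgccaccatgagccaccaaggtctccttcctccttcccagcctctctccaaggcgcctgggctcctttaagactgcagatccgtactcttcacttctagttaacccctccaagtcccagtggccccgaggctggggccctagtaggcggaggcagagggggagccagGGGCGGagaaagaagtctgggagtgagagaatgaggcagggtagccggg
Mertk (chr3:136392324-136392573, plus strand): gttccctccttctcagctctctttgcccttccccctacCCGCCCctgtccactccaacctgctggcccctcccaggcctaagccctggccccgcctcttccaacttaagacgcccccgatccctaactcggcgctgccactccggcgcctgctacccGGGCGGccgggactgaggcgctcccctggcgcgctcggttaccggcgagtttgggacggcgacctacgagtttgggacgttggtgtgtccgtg
Tyro3 (chr3:127231653-127231902, plus strand): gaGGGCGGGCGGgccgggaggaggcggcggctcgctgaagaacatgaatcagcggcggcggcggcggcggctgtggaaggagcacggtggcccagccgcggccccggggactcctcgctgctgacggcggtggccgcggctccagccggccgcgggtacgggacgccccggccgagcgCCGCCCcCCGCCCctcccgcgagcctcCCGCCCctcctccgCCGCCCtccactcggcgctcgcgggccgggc
The GC box was found 1 time before Axl, 2 times before Mertk and 6 times before Tyro3, overlapping matches included. It was found 3 times before each of Gas6, Pros1 and Mfge8 and 0 times before Timd4, and it occurred in 30.5% of 33469 rat promoters of the same length. The AP-1 motif TGANTCA, searched on both strands, occurred 1 time before Tyro3, 0 times before each of the other 6 genes and in 6.3% of promoters. TATAAA was found before 0 of the 7 genes and in 12.9% of promoters. The guanine and cytosine content of the windows was 61.6% for Axl, 68.0% for Mertk and 82.0% for Tyro3. A match describes letters in this window and is no evidence of binding.

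Other genes of apoptotic cell uptake were taken as 9 lists by role, 102 genes on the array in all. Of 79 tested, 16 rose and 26 fell with NM401 and 37 passed in neither direction, so 53.2% were called, near the 57.3% of all genes. Over all genes, 21.9% were called higher and 35.4% lower, and the counts of each list below stand beside these shares. With slide as a block, 1 NM401 array stands against the 4 controls. Not all of the 42 called genes kept their call there, fewer still did with slide 1 fitted alone, and 0 changed sign. Losses with slide 1 fitted alone are not given for each gene below. With scaling to the spike-ins, 25 of the 26 genes called lower changed sign, the exception being Cd24, so the directions in the lists below are relative to the other RNA of the same array. Median scaling kept 30 of the 42 calls, normexp 38 and quantile normalization 36.

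**Figure D4:**
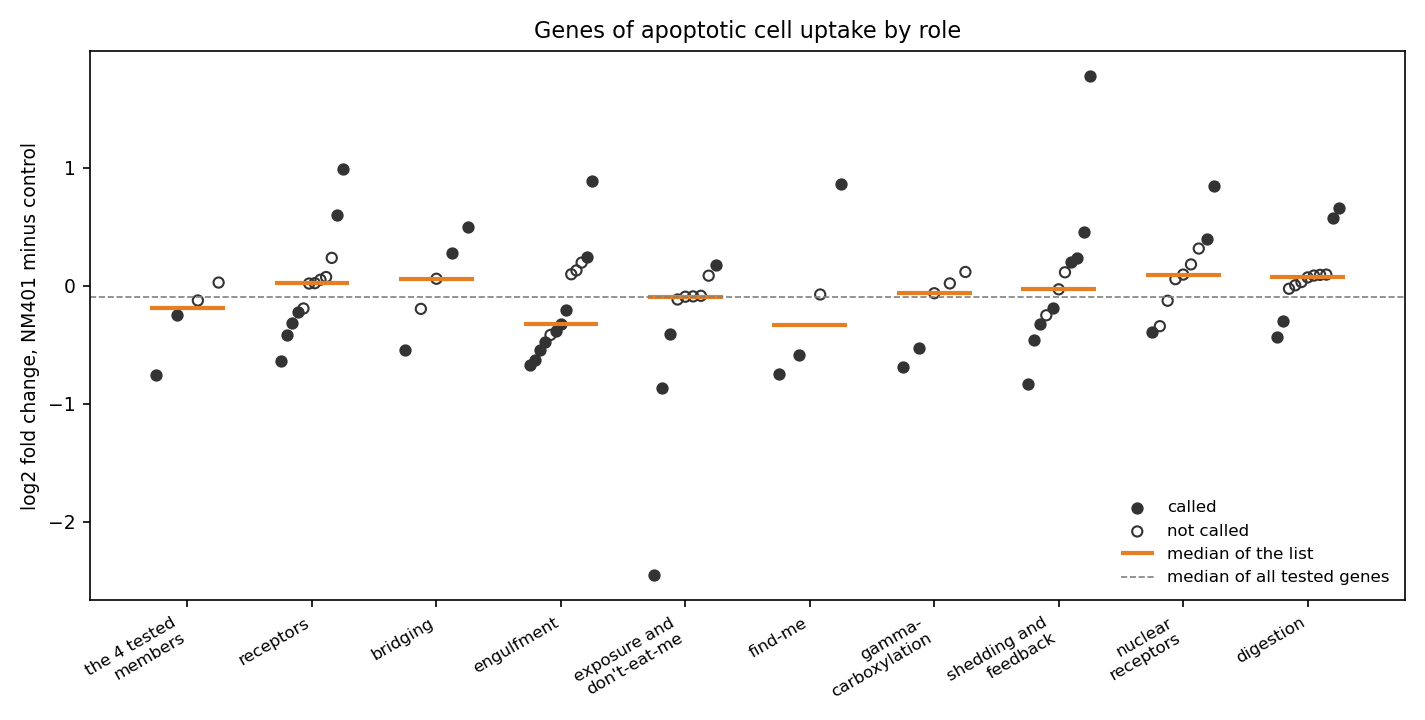
Log2 fold change (NM401 minus control) of the 4 tested genes and of the tested genes in 9 lists by role; each point is a gene, filled points passed an adjusted p below 0.05 (limma), orange lines are list medians and the dashed line is the median of all tested genes, -0.10. Genes called in both directions stand in every list except gamma-carboxylation, where the 2 called genes, Ggcx and Vkorc1, fell.

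Among other phosphatidylserine and apoptotic cell receptors, 2 of 12 tested rose, 4 fell and 6 passed in neither direction (median 0.02). Ager, the receptor for advanced glycation end products, rose by 0.99 ± 0.09 (log2 fold change ± SE over 4 arrays per group, as in the lists that follow; limma, adjusted p = 0.000119). Adgrb1, which encodes the engulfment receptor BAI1, rose by 0.60 ± 0.11 (adjusted p = 0.00281), but was at -0.03 and not called with normexp, where Ager was at 0.29. The HDL receptor gene Scarb1 fell by 0.63 ± 0.05 (adjusted p = 8.19e-05), the integrin gene Itgb3, whose product binds MFG-E8, by 0.42 ± 0.12 (adjusted p = 0.018), the phosphatidylserine-binding receptor gene Cd300lf by 0.31 ± 0.10 (adjusted p = 0.0232) and the lipid receptor gene Trem2 by 0.23 ± 0.05 (adjusted p = 0.00624). With quantile normalization Trem2 was at 0.20 and called higher. The calls of Cd300lf, Itgb3 and Trem2 were lost with median scaling (-0.11, -0.21 and -0.02) and with slide as a block (-0.11, -0.44 and -0.20). Cd36 (0.02), Itgav (0.02) and Lrp1 (0.05) passed in neither direction.

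Of the other bridging molecules, 5 of 10 on the array were tested, and the complement genes C1qa, C1qb and C1qc, Thbs1 and Ptx3 were not. Anxa5, a phosphatidylserine-binding annexin gene, rose by 0.50 ± 0.06 (limma, adjusted p = 0.000341) and Edil3, a relative of Mfge8 that also binds phosphatidylserine and integrins, by 0.27 ± 0.07 (adjusted p = 0.0135). Lgals3, which encodes galectin-3, reported as a MerTK ligand, fell by 0.55 ± 0.08 (adjusted p = 0.00105), and was at -0.02 and not called with quantile normalization. Edil3 lost its call with slide as a block (0.34, adjusted p = 0.0643). Anxa1 (0.06) and Calr (-0.20) passed in neither direction, and the median of the 5 was 0.06.

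Engulfment signalling held 7 genes that fell, 2 that rose and 4 that passed in neither direction of 13 tested. The list median was -0.33, which is the value of Rac1, against -0.10 over all genes. Tln1, the talin gene that links integrins to actin, fell by 0.67 ± 0.07 (limma, adjusted p = 0.000216). The GTPase gene Rac1 fell by 0.33 ± 0.06 (adjusted p = 0.00162), the lipid exporter gene Abca1 by 0.54 ± 0.09 (adjusted p = 0.00168) and the GTPase gene Rhog by 0.38 ± 0.07 (adjusted p = 0.00222). Elmo1, Abca7 and Vav3 also fell. The adaptor gene Crk rose by 0.89 ± 0.18 (adjusted p = 0.0037) and Elmo2 by 0.24 ± 0.08 (adjusted p = 0.0318), but Crk was at -0.06 and not called with normexp. Median scaling ended the calls of Rac1 (-0.12), Rhog (-0.18), Vav3 and Abca7, and slide as a block those of Abca1 (-0.46), Crk (0.81), Elmo2 (0.10) and Vav3.

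Of 9 tested genes for phosphatidylserine exposure and don't-eat-me signals, 1 rose and 3 fell (median -0.09). Cd24, a surface glycoprotein gene, fell by 2.45 ± 0.32 (limma, adjusted p = 0.000437). Sirpa, which encodes the inhibitory receptor for CD47, fell by 0.87 ± 0.06 (adjusted p = 4.57e-05) and the scramblase-family gene Plscr1 by 0.41 ± 0.09 (adjusted p = 0.00659). Tmem30a, a flippase subunit gene, rose by 0.18 ± 0.06 (adjusted p = 0.0402). Plscr1 lost its call with median scaling (-0.21) and with slide as a block (-0.46), and Sirpa was at -0.57 with quantile normalization. Cd47 itself was at -0.09 (adjusted p = 0.185), and Xkr8, the scramblase gene of apoptotic cells, also at -0.09 (adjusted p = 0.547).

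Among genes of find-me signals and their receptors, 4 of 9 were tested. The nucleotide receptor gene P2ry2 rose by 0.86 ± 0.09 (limma, adjusted p = 0.000185), the ADP receptor gene P2ry12 fell by 0.75 ± 0.10 (adjusted p = 0.000429) and the fractalkine receptor gene Cx3cr1 fell by 0.58 ± 0.14 (adjusted p = 0.00745). P2ry6 was at -0.07 (adjusted p = 0.68), and the 4 had a median of -0.33. Of the 5 genes for the gamma-carboxylation that Gas6 and protein S need, 2 fell. The carboxylase gene Ggcx fell by 0.69 ± 0.06 (adjusted p = 8.84e-05), and the vitamin K reductase gene Vkorc1 by 0.52 ± 0.08 (adjusted p = 0.00079). Vkorc1l1 (0.12), Nqo1 (0.02) and Aifm2 (-0.06) passed in neither direction, and the median was -0.06. Vkorc1 was at -0.32 with median scaling. With slide 1 fitted alone, Vkorc1 (-0.41), P2ry12 (-0.69) and Cx3cr1 (-0.75) lost their calls.

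For TAM receptor shedding, signalling and feedback, 4 of 11 tested genes rose, 4 fell and 3 passed in neither direction (median -0.03). Socs3, a cytokine signalling suppressor that TAM signalling is known to induce, rose by 1.78 ± 0.11 (limma, adjusted p = 4.17e-05), while Socs1 was not tested. Adam17, a protease known to shed MerTK, rose by 0.46 ± 0.08 (adjusted p = 0.00192), Grb2 by 0.23 ± 0.05 (adjusted p = 0.00412) and the interferon receptor gene Ifnar2 by 0.20 ± 0.07 (adjusted p = 0.0419). The other protease gene, Adam10, was at -0.25 ± 0.11 (adjusted p = 0.0741). The ubiquitin ligase gene Cblb fell by 0.83 ± 0.06 (adjusted p = 4.57e-05), Ifnar1 by 0.33 ± 0.07 (adjusted p = 0.00636) and the kinase gene Akt1 by 0.19 ± 0.06 (adjusted p = 0.0223). Akt1 was at 0.02 and not called with median scaling, and its call was also lost with quantile normalization (-0.12) and normexp (-0.10). Ifnar1 lost its call with median scaling (-0.12) and slide as a block (-0.34), and Ifnar2 with normexp (0.14) and slide as a block (0.08).

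Of 9 tested transcription factor genes that control uptake genes, most of them nuclear receptors, 2 rose and 1 fell (median 0.09). Klf4 rose by 0.40 ± 0.06 (limma, adjusted p = 0.001), while Pparg fell by 0.40 ± 0.09 (adjusted p = 0.00751). Pparg lost its call with quantile normalization (-0.16), median scaling (-0.19) and slide as a block (-0.35). The LXR genes Nr1h3 (0.06) and Nr1h2 (0.09) passed in neither direction. Of 11 tested genes for the digestion of engulfed cells, 2 rose, 2 fell and 7 passed in neither direction (median 0.07). Lipa, the lysosomal lipase gene, rose by 0.57 ± 0.10 (adjusted p = 0.002) and the protease gene Ctsl by 0.66 ± 0.20 (adjusted p = 0.0222). The protease gene Ctsd fell by 0.43 ± 0.09 (adjusted p = 0.00347), and was at 0.05 and not called with quantile normalization, and the mitochondrial carrier gene Ucp2 fell by 0.30 ± 0.07 (adjusted p = 0.00652). Ucp2 lost its call with quantile normalization (-0.17), median scaling (-0.10) and slide as a block (-0.31), and with slide as a block those of Lipa (0.35) and Ctsl (0.75) were lost too.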

How the data were processed

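The authors deposited, per the file headers, the spot intensity files of Agilent Feature Extraction 11.0.1.1, in which the background had been subtracted and spatial trends removed array by array, with no scaling across arrays. The deposited series values were the median pixel intensity of the same spots (503808 of 503808 compared). Groups and replicates come from the labels. Spots marked as outliers were left out, spots of a probe averaged on log2 (47 probes dropped), and each array scaled to its 75th percentile over 58717 non-control spots. A probe was tested if it was well above background on 4 or more of the 8 arrays (21684 probes, 17444 genes, the brightest probe per gene), with limma 3.58.1 (lmFit, eBayes, two-sided, no covariate) in R 4.3.3, with the package data.table (version 1.17.8) and Benjamini-Hochberg adjustment. The fit was tested on simulated data with independent noise and without an array-wide shift or a slide effect, so that test does not cover these. Names came from the files and from RefSeq accessions for 21109 of 45598 probes; the 2 Timd4 probes kept the files' name. The number of arrays, 4 per group, limits the precision. Single array values were compared by exact permutation.

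The genes and the lists were chosen with earlier results of these data known. All 7 genes are named. In each list up to 4 called genes with the smallest p in each direction were named with values; genes named although they passed in neither direction were chosen after their values were seen. For likeness the 2 genes with the highest correlation were named. A few list genes under this rule are not reported here. In the lists, Bai1 and Fsp1 are other names of Adgrb1 and Aifm2. The alternatives were quantile normalization, median scaling, spike-in scaling, normexp background correction with an offset of 50, other filters, the deposited series values, slide or replicate number as a block, slide 1 alone, a mean over the probes of each gene and each array left out. Spike-in scaling with bright spike-ins alone, the unfiltered fits of Gas6 under other settings and the within-array differences were added after seeing the data. Same-numbered samples deviated together with correlations of -0.07 to 0.19, above 0.1 in 1 of 4 pairs, so the replicate numbers were not taken to pair samples.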

Additional observations from a re-analysis of the deposited data

Results flagged for a closer look

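Among 16 sets of 4 arrays (8 probes in 2 groups), 1 held an array that stood apart from the other 3 by Dixon's test at the 95% level. NM401 replicate 1 was at -9.05 for one of the Timd4 probes, below the other NM401 arrays. This probe was not above background on any array, and chance gives about 5% of such sets.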

How the results depend on the processing

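Of the 7 genes, 2 were called as scaled here, 1 with median scaling, 4 with scaling to the spike-ins or to the bright spike-ins alone, 1 with slide as a block and 1 within slide 1 (both rest on NM401 replicate 1 against the controls). With normexp 3 were called, Mertk being called lower, and with no filter on dim probes 3 were called, Gas6 among them. With the replicate block (a paired fit, although the numbers do not pair the samples) 2 were called, and 3535 genes were higher and 5845 lower. Over all genes, 3823 were higher and 6178 lower as scaled here, so that 38.2% of calls were higher. The counts were 6113 higher and 3360 lower with median scaling (64.5%), 4984 and 4652 with quantile normalization (51.7%), 16882 and 94 with spike-in scaling (99.4%), 17055 and 54 with the bright spike-ins, 2745 and 9403 with normexp (22.6%), 2815 and 8434 with the deposited series values, 2951 and 7764 with no filter (27.5%), 2216 and 3525 with slide as a block, and 752 and 1362 within slide 1, where fewer samples were fitted. The median over all genes was 0.01 with quantile normalization, 0.11 with median scaling, 1.92 with spike-in scaling and -0.24 with normexp. Axl turned to 1.26 with the spike-ins and 1.54 with the bright ones, Tyro3 to 1.77 and 2.05, Mfge8 to 1.89 and 2.17 (and 0.079 with median scaling), and Gas6, unfiltered, to 0.77. Mertk, which passed in neither direction, was at 2.05 and 2.32 with the spike-ins, -0.32 with normexp, -0.26 with the deposited series values and -0.37 both with slide as a block and in slide 1 alone. Leaving out 1 array moved Mertk between -0.052 (without NM401 replicate 2) and 0.16 (without NM401 replicate 1). It moved Axl and Tyro3 within the same call. Unfiltered, Gas6 lost its call with slide as a block (-1.36, adjusted p = 0.0791). Apart from the shift that a scaling gives every gene and the smaller number of samples, the cause was not tested. Signal near background limits Gas6, Pros1, Timd4 and Mertk.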
